A study of Mus musculus with 25 samples.

Results

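The mitochondrial respiratory chain was followed here through the genes that encode its parts, in germ cells that lack YTHDC2 and in germ cells that have it. Members were taken by gene symbol alone: nuclear genes whose symbols start with Nduf, Uqcr, Uqcc, Sdh followed by a to d, Atp5, or Cox4 to Cox8, with Cox7b and Cox8a left out, plus the 13 protein genes of the mitochondrial genome. This gave 108 of the 14103 genes in the deposited table, of which 95 are nuclear (79 subunits and 16 assembly factors).

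The groups were Ythdc2 knockout (KO) and wild type (WT) testis cells of postnatal day 10, sorted for a 4N DNA content, which cells after DNA replication and cells in meiotic prophase share. Per the labels, the mutant mice were made on a hybrid C57BL/6 and DBA/2 background, and the KO line came from earlier work. Single cells were read from 2 KO libraries, called KO A (1522 cells) and KO B (1855 cells), and 1 WT library (1151 cells). The sources used here do not give whether each library is 1 animal or a pool, nor which KO sample each KO library is. The authors sorted the cells into 5 named clusters, numbered here. They called cluster 1 undifferentiated and cluster 2 differentiating spermatogonia, and gave cluster 3 to spermatocytes at leptotene and zygotene. Their names for clusters 4 and 5 mix both of the last stages. All 427 cells of cluster 3 were WT. Cluster 4 had 592 cells from KO A, 441 from KO B and 24 from WT, and cluster 5 had 335 from KO A, 510 from KO B and 1 from WT.

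Ythdc2 itself was at 47.0 CPM (UMIs scaled to 1e6 in all) in KO A and 42.6 CPM in KO B, against 196 CPM in WT. Total UMIs were 1.81e+07 in KO A, 2.54e+07 in KO B and 1.63e+07 in WT, and all 8 germ cell markers examined were detected in every library and cluster. These markers were not level between genotypes, with a call meaning a limma adjusted p under 0.05. In cluster 2, 0 were called higher and 3 lower (median log2 difference -0.28), beside 2.87% and 1.43% of all genes tested. In clusters 3, 4 and 5, 2 were called higher and 4 lower (median -0.58), beside 37.4% and 29.1%. The part of these markers in the results below was not tested. Myoid and stromal markers summed to 1343 and 1571 CPM in the KO libraries and 2670 CPM in WT within cluster 1, and to between 5.26 and 12.7 CPM in the other clusters. The 2 listed globin genes summed to 444 CPM in cluster 2 of KO A, against 1.07 CPM in KO B and 0.619 CPM in WT. Sertoli markers (5 of 6 in the table) summed to between 6.60 and 41.6 CPM, with Sox9 and Wt1 at 0 in WT cluster 3. The single Leydig, macrophage and endothelial markers in the table each stayed under 5 CPM. Cluster 1 held 66 and 90 KO cells and 45 WT cells, and entered the tests only where all cells of a library were pooled.

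The respiratory chain passes electrons from NADH (complex I) and succinate (complex II) through complex III to complex IV, where oxygen is reduced, and the proton gradient it builds drives ATP synthase (complex V). Complexes I, III, IV and V each combine subunits made from nuclear mRNAs with a few made inside the mitochondrion, while complex II is wholly nuclear. In the testis, germ cells leave a spermatogonial state that leans on glycolysis and rely more on respiration as they go through meiosis, and several complex IV subunits have testis isoforms. The mitochondrial genome is transcribed as long precursors from both strands, and mt-Nd6 is the sole protein gene on the light strand.

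The c ring of ATP synthase shows how nuclear members can part from each other. Atp5g1, Atp5g2 and Atp5g3 encode the same mature ring protein behind different import sequences, so only their regulation and their transit peptides differ. The 250 bases before each start site are shown for that reason, from RefSeq on GRCm38.p6, all 3 genes lying on the minus strand. The start site is the one RefSeq's table was built on, which for Atp5g2 is the outermost 5′ end of the gene, but lies 63 bases inside it for Atp5g1 and 1138 bases inside it for Atp5g3. The sequences are given with the letters of a searched motif in capitals: CACGTG (an E-box) in Atp5g1 and Atp5g3, and GCATGCGC (the NRF1 core, here overlapping its own reverse complement GCGCATGC) in Atp5g2.
Atp5g1, chr11:96075632-96075881: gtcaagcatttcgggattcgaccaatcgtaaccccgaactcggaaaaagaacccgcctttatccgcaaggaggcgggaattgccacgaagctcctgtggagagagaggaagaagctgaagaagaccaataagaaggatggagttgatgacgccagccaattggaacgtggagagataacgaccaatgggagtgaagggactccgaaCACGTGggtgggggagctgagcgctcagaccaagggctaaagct
Atp5g2, chr15:102671048-102671297: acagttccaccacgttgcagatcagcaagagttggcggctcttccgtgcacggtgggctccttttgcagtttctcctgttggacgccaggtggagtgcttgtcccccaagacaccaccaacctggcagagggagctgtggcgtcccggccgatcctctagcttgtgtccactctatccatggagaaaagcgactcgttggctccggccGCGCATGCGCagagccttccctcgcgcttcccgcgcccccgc
Atp5g3, chr2:73911327-73911576: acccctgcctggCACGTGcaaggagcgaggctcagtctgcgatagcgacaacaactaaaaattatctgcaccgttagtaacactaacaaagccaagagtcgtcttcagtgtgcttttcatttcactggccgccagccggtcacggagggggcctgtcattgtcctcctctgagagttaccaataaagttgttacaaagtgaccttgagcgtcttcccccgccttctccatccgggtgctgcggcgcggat

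Motifs were searched on both strands in the same window. Of the 78 members with a promoter in the RefSeq table, 9 (11.5%) held the NRF1 core, against 5.28% of the 10684 table genes with a promoter. CCGGAAG, the ETS core, was in 16 members (20.5%), against 15.6% of those genes. The E-box was in 6 members (7.69%), against 9.95%. A match describes letters in this window and is not a measured binding site.

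In cluster 2, with 529 KO A, 814 KO B and 654 WT cells, nuclear members were mostly a little lower in KO cells and mitochondrially encoded ones higher, but few single genes passed the test. Levels are mean normalised UMIs per cell (each cell's counts divided by the authors' size factor), and a gene was called where limma gave an adjusted p under 0.05 over all genes tested. Of the 92 nuclear members tested, 0 were called higher, against 2.87% of all genes tested, and 1 was called lower, against 1.43%. At an unadjusted p under 0.05 the numbers were 4 higher and 16 lower with limma, beside 14.6% and 9.63% of all genes tested. edgeR called 0 higher and 11 lower, beside 8.09% and 6.88%. DESeq2 called 0 in either direction, beside 26 higher and 24 lower of all 9435 genes tested. Their median log2 difference was -0.16, beside 0.03 over all genes tested. In both KO libraries 62 of the 92 were below WT, beside 3474 of all 9435 genes tested. The scaling bears on these counts: with each cell scaled to its nuclear UMIs alone, 4 nuclear members were called higher and 5 lower, beside 8.58% and 1.52% of all genes tested. With cells holding 10 or more UMIs of the somatic and globin markers left out, which was chosen after seeing the data, 4 were called lower, beside 2.33%. In cluster 2 this removed 1 cell of KO A, 0 of KO B and 0 of WT, so these counts moved with a single cell.

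The called gene was Uqcrc1, a core subunit of complex III, with 2.92 in KO A and 3.23 in KO B, against 4.45 normalised UMIs per cell in WT. Both KO libraries lay below WT (log2 difference -0.53 ± 0.13 SE, limma adjusted p = 0.0438). The call was lost when doublets were left out (limma adjusted p = 0.0699), without the filter on low values and with DESeq2. These settings called fewer genes of any kind. Leaving out doublets called 92 higher and 21 lower of 9439, and no filter called 2 and 1 of 13994, against 271 and 135 of 9435 in the main fit. Cytochrome oxidase subunit Cox4i1 had 10.4 and 13.9 in KO A and KO B, against 16 in WT, and Cox5a had 7.15 and 7.17, against 9.58. The catalytic ATP synthase subunit Atp5b had 9.93 and 9.84 in KO A and KO B, against 12 in WT. None of these 3 passed the test (limma adjusted p = 0.298, 0.146 and 0.378), although each was lower in both KO libraries. Atp5e, the F1 epsilon subunit, differed widely between the KO libraries, with 3.00 in KO A and 5.72 in KO B, against 6.52 in WT, and was not called (limma adjusted p = 0.164).

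All 13 mitochondrially encoded genes had a positive mean difference in cluster 2, with a median of 0.33, beside 5069 of all 9435 genes tested with a positive one. Of the 13, 2 were called higher, beside 2.87% of all genes tested. mt-Atp8, a small subunit of the ATP synthase proton channel, had 2.34 in KO A and 1.52 in KO B, against 0.823 normalised UMIs per cell in WT. The KO libraries were both above WT but stood apart from each other (log2 difference 1.19 ± 0.19 SE, limma adjusted p = 0.0114); the call was lost with DESeq2 and without the filter on low values. mt-Nd6 was low throughout, with 0.140 and 0.116 in KO A and KO B, against 0.0622 in WT (limma adjusted p = 0.0456), and its call was lost with DESeq2, without the filter, with a pseudocount of 0.1 and with doublets left out. Of all genes tested, the pseudocount of 0.1 called 209 higher and 113 lower, and the counts for the other settings are given above. Both KO libraries were above WT for 9 of the 13 genes, beside 4171 of all 9435 genes tested. They were on either side of it for 4. mt-Atp6 had 181 in KO A and 145 in KO B, against 124 in WT, both above it but not called (limma adjusted p = 0.849). mt-Co1, the catalytic subunit of complex IV, had 200.0 and 154, against 168 in WT, with the KO libraries on either side (limma adjusted p = 0.981). The median difference of the 13 genes from WT was 0.51 for KO A and 0.14 for KO B. Median mitochondrial share per cell in cluster 2 was 9.79% in KO A and 7.03% in KO B, against 5.68% in WT. Over all clusters it was 9.11% in KO A and 6.64% in KO B, against 5.59% in WT. Median UMIs per cell in cluster 2 were 9667 in KO A and 11793.5 in KO B, against 14298.5 in WT. The part of this share or of depth in the cluster 2 differences was not tested.

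**Figure D1:**
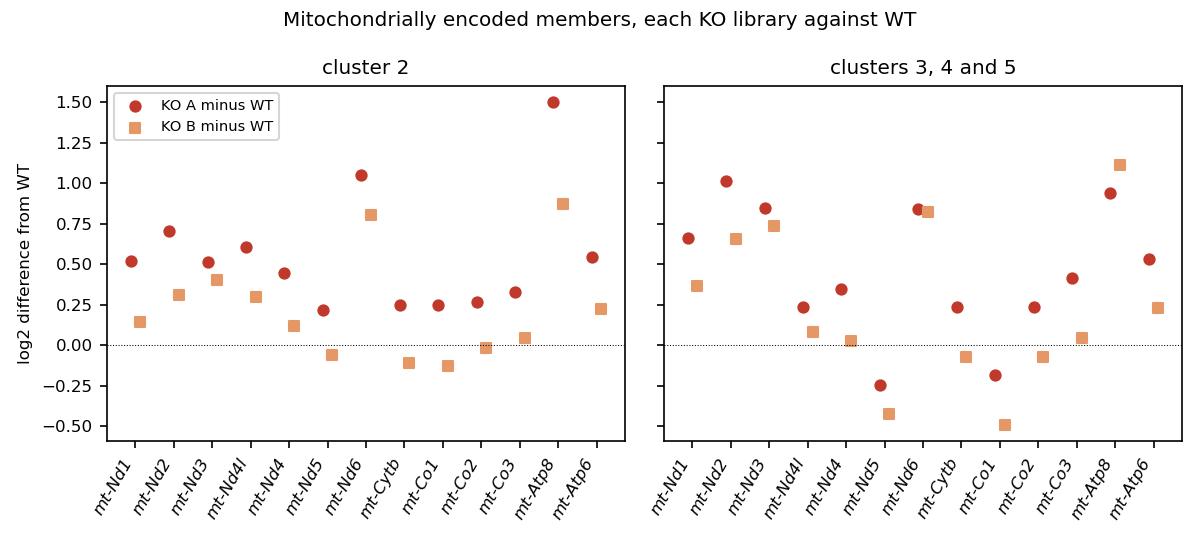
Log2 difference of each KO library from WT for the 13 mitochondrially encoded members (x axis), in cluster 2 (left) and in clusters 3, 4 and 5 together (right). KO A (circles) is above KO B (squares) for every gene in cluster 2, and mt-Atp8 and mt-Nd6 are above WT in both libraries and both panels.

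In clusters 3, 4 and 5 together nuclear members were called in both directions. Of the 93 nuclear members tested, 16 were called higher and 30 lower in KO cells, beside 37.4% and 29.1% of all genes tested. Of the 13 mitochondrially encoded genes, 4 were called higher (mt-Atp8, mt-Nd2, mt-Nd3 and mt-Nd6) and 1 lower (mt-Nd5). Differences of nuclear members were small for these cells: their median absolute log2 difference was 0.26, beside 0.47 over all genes tested, and 5 of 93 reached 1 in either direction, beside 1701 of 9299. With each cell scaled to its nuclear UMIs, 37 nuclear members were called higher and 14 lower, beside 48.1% and 18.7% of all genes tested. That scaling put the median of all genes at 0.28, where it is 0.08 as reported here, and it put the nuclear median at 0.19, where it is -0.01 here. Relative to the median of all genes, the nuclear median was -0.09 under that scaling and -0.08 under the one used here.

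WT cells of these clusters are nearly all in cluster 3 and KO cells are in clusters 4 and 5, so the comparison is also between clusters. The KO clusters differ from each other in depth, with a median per cell of 8146.5 UMIs for KO A and 8560 for KO B in cluster 4, of 16097 and 16152.5 in cluster 5, and of 12203 in WT cluster 3. Differences between clusters of the same library are described without a test, since clusters were formed from the same genes. Set against WT cluster 3 separately, an alternative chosen after seeing the data, KO cluster 4 had 13 nuclear members called higher and 43 lower of 92 (36.1% and 28.3% of all genes tested), and 11 mitochondrially encoded genes higher and 0 lower. KO cluster 5 had 36 nuclear members called higher and 18 lower of 93 (35.3% and 28.3% of all genes tested), the higher count being near its share. It had 3 mitochondrially encoded genes called higher and 7 lower.

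**Figure D2:**
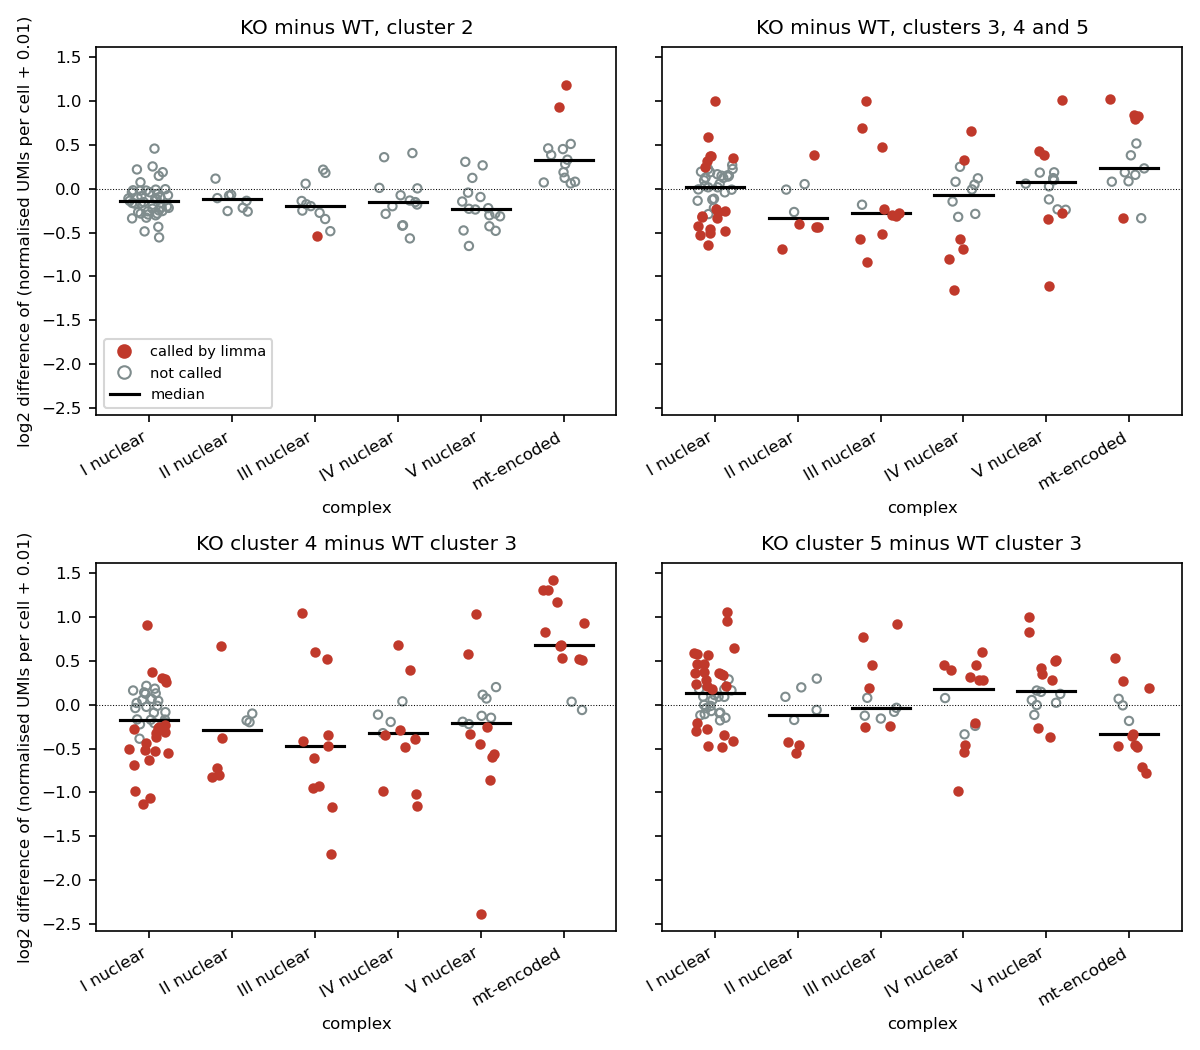
Log2 difference, KO minus WT, of each tested member (y axis) by complex (x axis), with filled points called by limma and bars at the medians. The mitochondrially encoded genes lie mostly above 0 in KO cluster 4 and mostly below it in KO cluster 5, each against the same WT cluster 3 cells; the median of nuclear members is -0.22 for cluster 4 and 0.09 for cluster 5.

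Both contrasts use the same WT cells, so their shared calls are given as counts only. Nuclear members called higher in both numbered 11, beside 29.2% of all genes tested in both, and those called lower in both numbered 14, beside 22.6%. Another 8 (beside 0.643%), among them Atp5g1, Cox6b1, Cox7b2 and Uqcrq, were lower in cluster 4 and higher in cluster 5. For mt-Co2, mt-Co3, mt-Cytb, mt-Nd4 and mt-Nd4l the call was higher in cluster 4 and lower in cluster 5, beside 0.0981% of all genes. These genes were picked out after their values were seen.

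Among complex I subunits, 7 of 36 were called higher and 10 lower in clusters 3, 4 and 5, beside 37.4% and 29.1% of all genes tested. The lower count is near its share. The same shares stand beside the counts of complex I assembly factors, complex II and complex IV below. Ndufb10, an accessory subunit of the membrane arm, had 1.88 in KO A and 1.93 in KO B, against 0.945 normalised UMIs per cell in WT, a 2.02-fold higher level (log2 difference 1.00 ± 0.10 SE, limma adjusted p = 3.17e-22). It was at 1.80 and 1.83 in KO cluster 4 and at 2.02 and 2.01 in KO cluster 5, against 0.965 in WT cluster 3. The X-linked accessory subunit Ndufb11 had 1.19 and 1.28 in KO A and KO B, against 0.817 in WT (limma adjusted p = 5.01e-08), but its rise was in cluster 5 (1.67 and 1.59) and not called in cluster 4 (0.910 and 0.931, limma adjusted p = 0.326).

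Ndufa11, a membrane-arm subunit, was lower, with 1.55 in KO A and 1.96 in KO B, against 2.73 in WT (log2 difference -0.64 ± 0.10 SE, limma adjusted p = 9.03e-10). Core subunit Ndufs8 had 0.992 and 1.26 in KO A and KO B, against 1.62 in WT (limma adjusted p = 7.53e-07), and was not called in cluster 5 alone. Core subunit Ndufs1 had 2.07 and 2.04, against 2.56 in WT (limma adjusted p = 0.00349), a call lost with nuclear scaling. Ndufv1, which takes electrons from NADH, had 4.17 and 4.05 in KO A and KO B, against 3.76 in WT, and Ndufa1, the other X-linked member, had 4.55 and 4.93, against 5.51; neither was called (limma adjusted p = 0.303 and 0.0851). Of the 8 assembly factors of complex I, 0 were called higher and 2 lower, Ndufaf1 (0.603 and 0.644 in KO A and KO B, against 0.857 in WT) and Ndufaf8 (1.68 and 1.76, against 2.06); at an unadjusted p under 0.05 with limma the numbers were 0 and 2.

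Complex II, which also belongs to the citric acid cycle, had 1 of its 4 subunits called higher and 2 lower. Sdha had 1.71 in KO A and 1.43 in KO B, against 1.2 in WT (limma adjusted p = 0.0003), a call lost with TMM scaling, edgeR and DESeq2. The fourth subunit, Sdhd, another membrane anchor, had 1.23 and 1.34, against 1.24 in WT, and was not called (limma adjusted p = 0.66). By contrast, the iron-sulphur subunit Sdhb had 3.06 and 3.27, against 4.28 (limma adjusted p = 0.000122). The membrane anchor Sdhc was also lower, with 1.27 and 1.24, against 1.66 in WT (limma adjusted p = 0.000177), though not with nuclear scaling. Sdha, Sdhb and Sdhc were called for KO cluster 4 alone and not for KO cluster 5 alone. Sdha was at 1.93 and 1.76 in KO cluster 4 and 1.33 and 1.15 in KO cluster 5, against 1.16 in WT cluster 3.

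Complex III had 6 of its 8 nuclear subunits called lower and 1, Uqcrb, called higher, beside 29.1% and 37.4% of all genes tested. For KO cluster 4 alone 7 were called lower and 1 higher, beside 28.3% and 36.1%. For KO cluster 5 alone 2 were called lower and 2 higher, beside 28.3% and 35.3%. Uqcr10, one of its smallest subunits, had 1.22 in KO A and 1.5 in KO B, against 2.42 in WT (log2 difference -0.84 ± 0.10 SE, limma adjusted p = 7.63e-16). The difference was mostly one of cluster 4, with 0.709 and 0.832 there and 2.12 and 2.08 in KO cluster 5, against 2.52 in WT cluster 3. The Rieske protein Uqcrfs1 was lower too, with 1.82 and 1.86 in KO A and KO B, against 2.24 in WT (limma adjusted p = 0.00957), and Uqcrc1 had 3.37 and 3.50, against 4.03 (limma adjusted p = 0.0487). Both of these calls were lost with DESeq2 and with nuclear scaling. For KO cluster 5 alone Uqcrfs1 was called lower and Uqcrc1 was not called. Its assembly factors went both ways: Uqcc1 had 0.280 and 0.315 in KO A and KO B, against 0.143 in WT, and Uqcc3 had 0.324 and 0.360, against 0.207, while Uqcc2, which in mammals acts with Uqcc1 on cytochrome b, had 3.00 and 3.62, against 4.90. All 3 were called (limma adjusted p = 5.16e-09, 1.40e-05 and 4.36e-07), Uqcc3 not with DESeq2.

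In complex IV, 2 of the 14 tested nuclear subunits were called higher and 4 lower. Ndufa4, which keeps a complex I name but is a complex IV subunit, had 7.68 in KO A and 7.65 in KO B, against 4.86 in WT (log2 difference 0.66 ± 0.13 SE, limma adjusted p = 5.79e-07). Cox6c had 8.08 and 8.32, against 6.54 in WT (limma adjusted p = 0.0219), a call lost with TMM scaling, edgeR, DESeq2 and no filter. Cox7a2l, which joins complexes III and IV in supercomplexes, had 1.59 and 1.84 in KO A and KO B, against 2.98 in WT (limma adjusted p = 1.76e-14), and Cox7c had 4.41 and 4.98, against 7.58 (limma adjusted p = 2.37e-08). Both were lower in each KO cluster: Cox7a2l was at 1.31 and 1.45 in cluster 4 and 2.07 and 2.18 in cluster 5, against 3.08 in WT cluster 3.

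Of the 3 isoforms with a testis role, only Cox6b2 was called in clusters 3, 4 and 5 together. It was called lower for KO cluster 4 alone (log2 difference -1.02) and not called for KO cluster 5 alone (-0.24). In the 3 clusters together the values were as follows. Cox6b2 had 0.165 in KO A and 0.203 in KO B, against 0.277 in WT, and was lower (limma adjusted p = 0.00157, lost with DESeq2). Its ubiquitous counterpart Cox6b1 had 1.76 and 1.99, against 1.88 (limma adjusted p = 0.95). In cluster 2 Cox6b2 had 0.578 and 0.649 in KO A and KO B, against 0.475 in WT, and the difference between the effects in clusters 3, 4 and 5 and in cluster 2 was itself called (-0.93 ± 0.18 SE on the log2 scale, limma adjusted p = 1.64e-06). That call was lost with DESeq2. Cox7b2 had 0.986 and 1.32 in clusters 3, 4 and 5 of KO A and KO B, against 1.05 in WT, and Cox8c had 0.198 and 0.240, against 0.268; neither was called (limma adjusted p = 0.306 and 0.113). Cox7b2 was called lower for KO cluster 4 alone (log2 difference -0.29) and higher for KO cluster 5 alone (0.45), and Cox8c was called for neither. Cox7a1, the heart and muscle isoform, was near the detection filter, with 0.0280 and 0.0380 in KO A and KO B, against 0.0854 in WT (limma adjusted p = 1.09e-05). Cox4i2 and Ndufa4l2 did not pass the filter in any comparison.

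Complex V held the nuclear member with the most negative log2 difference after Cox7a1. Atp5e had 3.79 in KO A and 5.02 in KO B, against 9.39 normalised UMIs per cell in WT, a level 2.13-fold higher in WT (log2 difference -1.10 ± 0.12 SE, limma adjusted p = 4.07e-19). By cluster it was at 1.73 and 1.97 in KO cluster 4 and 7.41 and 7.66 in KO cluster 5, against 9.71 in WT cluster 3. Its partners in the F1 head went the other way or were not called: Atp5c1 (gamma) had 2.99 and 3.67 in KO A and KO B, against 2.54 in WT, and Atp5a1 (alpha) had 7.43 and 7.13, against 5.39, both called higher (limma adjusted p = 0.000577 and 0.00121), Atp5c1 not with DESeq2 or without the filter. Atp5c1 was at 4.44 and 4.66 in KO cluster 5 but at 2.16 and 2.53 in KO cluster 4, against 2.55 in WT cluster 3. Atp5b had 10.0 and 9.52 in KO A and KO B, against 8.58 in WT, and was not called (limma adjusted p = 0.241).

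The c-ring genes of the printed promoters differed in the same cells. Atp5g3 had 1.95 in KO A and 1.85 in KO B, against 0.939 in WT, a 2.03-fold higher level (log2 difference 1.01 ± 0.10 SE, limma adjusted p = 1.79e-22), and was at 1.97 and 1.88 in KO cluster 4 and 1.92 and 1.83 in KO cluster 5. Atp5g2 was lower, with 5.46 and 6.33 in KO A and KO B, against 7.49 in WT (limma adjusted p = 0.0091, lost with nuclear scaling and without the filter), with the difference in cluster 4 (4.01 and 4.47) and not in cluster 5 (8.03 and 7.94), against 7.69 in WT cluster 3. Atp5g1 had 3.75 and 4.14, against 3.62 in WT, and was not called (limma adjusted p = 0.325). In cluster 2 Atp5g3 had 1.46 in KO A and 1.34 in KO B, against 1.45 in WT, and the difference of effects was 1.05 ± 0.11 SE on the log2 scale (limma adjusted p = 1.14e-18).

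**Figure D3:**
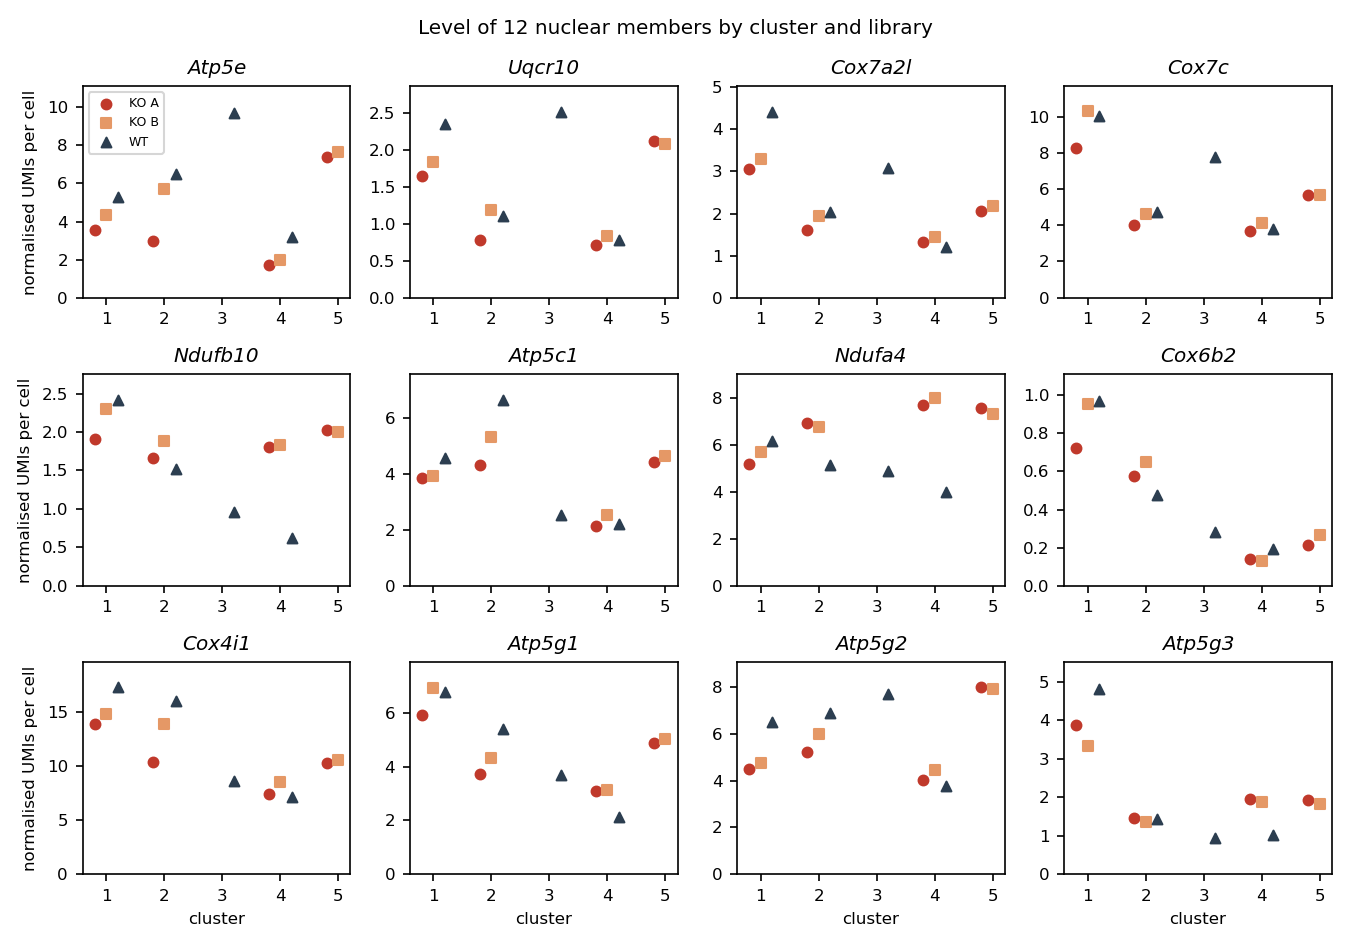
Mean normalised UMIs per cell (y axis, from 0) of 12 nuclear members in each cluster (x axis) and library (KO A circles, KO B squares, WT triangles), chosen after their values were seen. Atp5e and Uqcr10 are lower in cluster 4 than in clusters 3 and 5, whereas Ndufb10, Ndufa4 and Atp5g3 in clusters 4 and 5 of both KO libraries lie above WT clusters 3 and 4.

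The 24 WT cells that the authors placed in cluster 4 give a partial view of genotype within a cluster. Of these cells 2 were marked as doublets, and their median was 9512.5 UMIs per cell. Their pooled mitochondrial share was 11.8%, against 10.4% in KO A and 9.24% in KO B of cluster 4. The genes below were chosen after their values were seen, and genotype within cluster 4 was not tested. For Atp5e these cells had 3.21 and for Uqcr10 0.784 normalised UMIs per cell, nearer to KO cluster 4 (1.73 and 1.97 for Atp5e, 0.709 and 0.832 for Uqcr10) than to WT cluster 3. For Ndufb10 they had 0.617, for Ndufa4 3.99 and for Atp5g3 1.02, against 0.965, 4.90 and 0.935 in WT cluster 3, so on these genes they lay with WT cluster 3 and below KO cluster 4. Their counts are small, 70 UMIs for Atp5e and 14 for Ndufb10, which is 59.3 CPM with an exact Poisson 95% interval of 32.4 to 99.5 that covers counting error only.

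The mitochondrially encoded genes were called in both directions in clusters 3, 4 and 5. mt-Atp8 had 0.955 in KO A and 1.08 in KO B, against 0.494 in WT (log2 difference 1.02 ± 0.11 SE, limma adjusted p = 1.23e-19), while mt-Atp6, whose reading frame overlaps it on the same transcript, had 144 and 117, against 99.7 (limma adjusted p = 0.571). mt-Nd3 had 5.95 and 5.52 in KO A and KO B, against 3.31 in WT (limma adjusted p = 2.75e-11), and mt-Nd2 had 35.3 and 27.6, against 17.5 (limma adjusted p = 0.000577, lost with DESeq2). mt-Nd6 had 0.147 and 0.145, against 0.0778 in WT (limma adjusted p = 8.67e-05, lost with edgeR and DESeq2). These 4 were above WT in both KO libraries. mt-Nd5, which lies opposite mt-Nd6 on the other strand, was below WT in both, with 4.51 and 3.98, against 5.34 (limma adjusted p = 0.00611, lost with nuclear scaling). mt-Atp8, mt-Nd2 and mt-Nd3 were called higher for KO cluster 4 alone (log2 differences 1.42, 1.30 and 1.17). The same held for KO cluster 5 alone, by less (0.53, 0.19 and 0.27). mt-Nd6 was called higher only for cluster 4 (1.31, against 0.07 for cluster 5). mt-Nd5 was called lower only for cluster 5 (-0.71, against -0.06 for cluster 4).

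Other complex I genes of the mitochondrial genome were not called: mt-Nd1 had 50.0 and 40.7 in KO A and KO B, against 31.6 in WT (limma adjusted p = 0.111), mt-Nd4 had 63.9 and 51.4, against 50.3 (limma adjusted p = 0.654), and mt-Nd4l had 4.77 and 4.29, against 4.05 (limma adjusted p = 0.203). mt-Cytb, the cytochrome b gene of complex III, had 106 and 85.6 in KO A and KO B, against 90.1 in WT (limma adjusted p = 0.894). Of the cytochrome oxidase genes, mt-Co1 had 129 and 104 in KO A and KO B, against 147 in WT, mt-Co2 had 117 and 94.8, against 99.4, and mt-Co3 had 197 and 152, against 147; none was called (limma adjusted p = 0.633, 0.894 and 0.784). DESeq2 did call mt-Co1 lower. For KO cluster 5 alone mt-Co1 was also called lower (log2 difference -0.78), and for KO cluster 4 alone it was not called (0.03). mt-Co2 and mt-Co3 were called higher for KO cluster 4 alone (0.52 and 0.67) and lower for KO cluster 5 alone (-0.47 and -0.36). With infinite prior degrees of freedom the errors are those that the fit gives to all genes of a like level. For mt-Co1 this was 0.60 on the log2 scale, and it is not the gene's own spread between KO libraries. Differences within that error were not detectable by limma in the 3 clusters pooled.

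Summed over genes, the nuclear and mitochondrial parts of the chain ran in opposite directions between the KO clusters. The 95 nuclear members summed to 24792 CPM in KO A and 26150 CPM in KO B in cluster 4, and to 30125 and 29973 CPM in cluster 5. The 13 mitochondrially encoded genes summed to 103720 and 92444 CPM in KO cluster 4, and to 48169 and 43584 CPM in KO cluster 5. The ratio of mitochondrially encoded to nuclear UMIs was 4.18 and 3.54 in cluster 4 of KO A and KO B. It was 1.60 and 1.45 in cluster 5, against 2.10 in WT cluster 3 and 5.46 in the 24 WT cells of cluster 4. In cluster 2 the ratio was 3.46 in KO A and 2.41 in KO B, against 2.10 in WT.

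**Figure D4:**
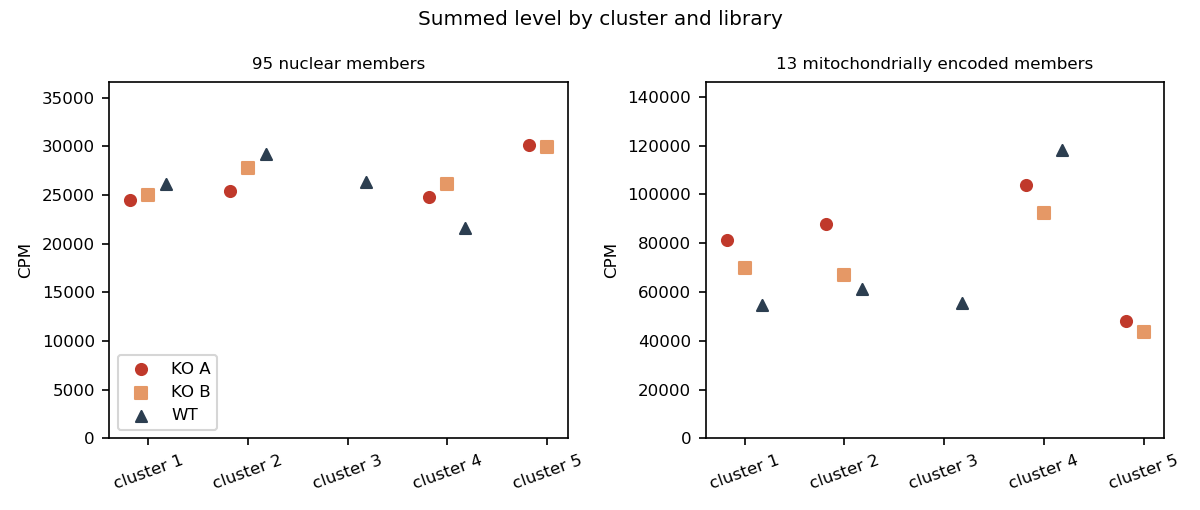
Summed level (y axis, CPM, from 0) of the 95 nuclear members (left) and the 13 mitochondrially encoded members (right) in each cluster and library. Cluster 4 is higher than cluster 5 for the mitochondrial sum in both KO libraries and lower for the nuclear sum. The total behind CPM includes mitochondrial UMIs in both panels.

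Gene by gene, all 13 mitochondrially encoded members were at least 1.5-fold lower in cluster 5 than in cluster 4 in both KO libraries, where 4.79% (KO A) and 2.67% (KO B) of all genes were. Of 92 nuclear members, 30 in KO A and 22 in KO B were at least 1.5-fold higher in cluster 5, beside 7.21% and 5.74% of all genes. Complex V had 9 of 15 nuclear subunits past that fold in KO A and 6 in KO B. Against cluster 2 of the same library, cluster 4 had 5 nuclear members at least 1.5-fold higher and 18 lower in KO A (beside 16.5% and 19% of all genes), and 2 higher and 19 lower in KO B (beside 15.7% and 18%). Cluster 5 against cluster 2 had 23 higher and 6 lower in KO A (beside 17.8% and 20.8%), and 15 higher and 6 lower in KO B (beside 15.1% and 16.9%), while 12 mitochondrially encoded genes in KO A and 11 in KO B were at least 1.5-fold lower. Cluster 1 against cluster 2 had 17 of 94 nuclear members higher and 14 lower in KO A (beside 31.6% and 20.6%), 15 and 14 of 93 in KO B (beside 32.3% and 19.6%), and 18 and 17 of 93 in WT (beside 34.6% and 20.3%). In WT cluster 3 against WT cluster 2, 12 of 93 nuclear members were at least 1.5-fold higher and 18 lower (beside 23.6% and 29.9% of all genes), and of the mitochondrially encoded genes 0 were higher and 1 lower.

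The KO minus WT difference was also compared between clusters 3, 4 and 5 and cluster 2, where it carries the change of cluster as well as genotype. Of the 93 nuclear members tested for this difference, 31 had a more positive KO minus WT difference in clusters 3, 4 and 5 (beside 29% of all genes tested) and 13 a more negative one (beside 21.4%). Atp5c1 was below WT in cluster 2 without being called (limma adjusted p = 0.102) and above it in clusters 3, 4 and 5: in cluster 2 it had 4.32 in KO A and 5.33 in KO B, against 6.67 in WT, and the difference of effects was 0.86 ± 0.10 SE (limma adjusted p = 9.29e-17). Atp5a1 had 8.41 and 8 in cluster 2 of KO A and KO B, against 9.67 in WT, with a difference of effects of 0.67 ± 0.09 SE (limma adjusted p = 2.94e-11). In the other direction, Uqcr10 had a difference of effects of -0.64, Cox7a2l of -0.60 and Cox7c of -0.56 (limma adjusted p = 4.12e-07, 2.06e-07 and 6.42e-08). The call for Uqcr10 was lost with DESeq2, and those for Uqcr10, Cox7a2l and Cox7c were lost with KO cluster 5 alone. With all cells pooled per library, 6 nuclear members were called higher and 12 lower of 92 (beside 18.3% and 14.8% of all genes tested), and 3 mitochondrially encoded genes were called higher, mt-Atp8, mt-Nd3 and mt-Nd6.

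Other genes of the pathway were taken from fixed lists. In clusters 3, 4 and 5, of 18 tested genes that copy or transcribe mitochondrial DNA, 7 were called higher and 3 lower (median log2 difference 0.24, beside 0.08 over all genes tested). Here and in the lists that follow, 37.4% of all genes tested were called higher and 29.1% lower. For this list the higher count is near its share and the lower count is under its share. Tfam, which packages mitochondrial DNA and starts its transcription, had 1.19 in KO A and 1.32 in KO B, against 0.442 in WT, a 2.84-fold higher level (limma adjusted p = 2.34e-41). The single-strand binding protein Ssbp1 had 2.61 and 2.59, against 1.29 in WT (limma adjusted p = 2.26e-22). Both were also called in cluster 2, where Tfam had 0.888 and 0.964 in KO A and KO B, against 0.567 in WT (limma adjusted p = 0.0163), and Ssbp1 had 2.38 and 2.43, against 1.73 (limma adjusted p = 0.0453). Tfb1m, a methyltransferase for mitochondrial ribosomal RNA, was lower, with 0.482 and 0.452, against 0.870 in WT (limma adjusted p = 1.22e-12).

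Complex IV assembly and copper delivery genes had 9 higher and 4 lower of 21 tested (median 0.22). Cox18, which inserts part of mt-Co2 in the membrane, had 0.370 in KO A and 0.357 in KO B, against 0.123 in WT, and Cox14 had 0.934 and 0.915, against 2.19 (limma adjusted p = 2.15e-19 and 4.23e-32). Of 5 tested complex III and cytochrome c genes, 3 were higher and 1 lower. The cytochrome c1 gene Cyc1 had 7.45 and 7.27 in KO A and KO B, against 4.52 in WT, and the testis cytochrome c gene Cyct had 0.197 and 0.179, against 0.0971 (limma adjusted p = 4.92e-08 and 7.71e-06). Among 7 transcriptional regulators, 3 were higher and 1 lower, with Yy1 at 3.06 and 3.13, against 1.43 in WT (limma adjusted p = 3.88e-26).

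The remaining lists were smaller or more even. Of 13 coenzyme Q genes 1 was higher and 3 lower, of 4 ATP synthase assembly and inhibitor genes 1 was higher and 1 lower, of 5 carriers of ATP and phosphate 2 were higher and 1 lower, and of 5 genes of alternative electron entry 2 were higher and 0 lower (0 also at an unadjusted p under 0.05 with limma). In cluster 2 the meiotic ADP/ATP carrier Slc25a31 had 3.73 in KO A and 3.43 in KO B, against 5.76 in WT (log2 difference -0.69 ± 0.14 SE, limma adjusted p = 0.0237).

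The deposited gene table also gives a U-motif score per gene, and how it was made is not stated in the sources used here. The members' median was 0.0061, beside 0.011 over all genes, and 45 of 108 members were at 0 (41.7%, beside 16.6% of all genes), including all 13 mitochondrially encoded ones. The complex I assembly factors Ndufaf6 (0.121) and Ndufaf5 (0.106) had the highest scores among members. In clusters 3, 4 and 5 Ndufaf6 had 0.317 in KO A and 0.320 in KO B, against 0.262 in WT, and Ndufaf5 had 0.118 and 0.130, against 0.153; neither was called (limma adjusted p = 0.104 and 0.183).

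The spread in these tests comes from the 2 KO libraries, so the lone WT library is taken to vary as they do, and genotype cannot be told apart from library in WT. Reads of nuclear members with processed pseudogenes, of mitochondrial genes with nuclear copies, and of mt-Nd5 and mt-Nd6 or mt-Atp8 and mt-Atp6 where they overlap may have been split in counting, in a way the sources used here do not give.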

How the data were processed

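The submitters' processing notes name Cell Ranger 3.0.2 and Scanpy, and the builds mm10 and GRCm38. The authors deposited a matrix of natural log values, the logarithm of 1 plus each cell's count over its size factor. The deposited cell table gives UMI and gene counts, the mitochondrial fraction computed by the authors, library, cluster and the size factor, a score per cell. The deposited gene table gives the authors' U-motif score. Undoing the logarithm and size factor gave whole numbers for 100% of values above 0 (tolerance 0.001), which served as counts for sums, edgeR and DESeq2.

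Levels were averaged per library and class. limma 3.58.1 in R 4.3.3 (empirical Bayes with trend) compared log2(level + 0.01) for genes averaging 0.05 or more, with Benjamini-Hochberg adjustment over all of them; log2 differences understate changes of low genes. There was 1 residual degree of freedom, and the smallest exact p of 1 library against 2 is 0.333. The adjusted p values therefore borrow the spread of other genes (prior df 25.0 with all cells, 11.0 in cluster 2, infinite in the other fits). The labels do not state separate animals, so p values measure only the spread between libraries. Alternatives used edgeR 4.0.16 and DESeq2 1.42.0, other scalings, filters and pseudocounts. Poisson intervals cover counting error only. Libraries shared 0 cell barcodes. Scrublet marked 22 of 4528 cells as doublets; since so few were marked, the caller may not have worked, and the cells were kept. The scripts were tested on simulated data.

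Named members were, per comparison and group, up to 2 called members per direction with the smallest p and at least 10 CPM, plus a fixed set. Members and lists were chosen with earlier results of these data known, and genes singled out beyond the rule were chosen after their values were seen. Values of 1 member are not reported here. Bulk RNA-seq and iCLIP samples were not analysed here.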

Additional observations from a re-analysis of the deposited data

Results flagged for a closer look

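Among the members named by the fixed rule, 34 are given here for which the KO minus WT difference in clusters 3, 4 and 5 differed from that in cluster 2 by the test of the difference itself (limma, adjusted over all genes tested; log2 scale). It was more positive in clusters 3, 4 and 5 for the ATP synthase genes Atp5g3 (1.05), Atp5c1 (0.86), Atp5a1 (0.67) and Atp5b (0.47). The same held in complex I for Ndufb10 (0.78), Ndufb8 (0.48), Ndufb11 (0.44), Ndufaf4 (0.35) and Ndufv1 (0.25), and in complex II for Sdha (0.45) and Sdhd (0.31). In complex III it was more positive for Uqcc1 (0.78), Uqcrb (0.61), Uqcc3 (0.52) and Uqcrc1 (0.30), and in complex IV for Cox4i1 (0.50), Cox5b (0.32), Cox6c (0.32) and Ndufa4 (0.25).

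It was more negative for the complex IV genes Cox6b2 (-0.93), Cox7a2l (-0.60) and Cox7c (-0.56), and for the complex II assembly factor Sdhaf3 (-0.80). In complex III it was more negative for Uqcr10 (-0.64), Uqcrh (-0.34) and Uqcc2 (-0.23), in complex V for Atp5e (-0.45) and Atp5k (-0.25), and in complex I for Ndufc1 (-0.30). Among mitochondrially encoded genes the difference was 0.33 for mt-Nd3 and 0.32 for mt-Nd2, and -0.41 for mt-Nd5, -0.40 for mt-Co1 and -0.29 for mt-Nd4l. Clusters 4 and 5 hold nearly all KO cells of the first class and cluster 3 nearly all its WT cells, so genotype and cluster cannot be told apart in that class. With DESeq2 the call was lost for Atp5b, Atp5e, Atp5k, Cox5b, Cox6b2, Cox6c, Ndufa4, Ndufaf4, Ndufb11, Ndufc1 and Ndufv1. DESeq2 also lost it for Sdha, Sdhaf3, Sdhd, Uqcc1, Uqcc2, Uqcc3, Uqcr10, Uqcrc1, Uqcrh, mt-Nd2 and mt-Nd3. KO cluster 5 alone lost it for Atp5b, Atp5k, Cox6c, Cox7a2l, Cox7c, Ndufa4, Ndufc1, Ndufv1, Sdha, Sdhaf3, Uqcr10 and mt-Co1. KO cluster 4 alone lost it for Cox4i1, Cox5b, Ndufa4, Ndufaf4, Ndufb8, Ndufv1, Sdhd, Uqcc3, Uqcrc1, mt-Co1 and mt-Nd5.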

How the results depend on the processing

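No paired analysis was possible because the genotypes share fewer than 2 replicate numbers. Leaving out a KO library leaves no residual degrees of freedom, so it gave values without a test, and without either one the nuclear median in clusters 3, 4 and 5 ranged from -0.09 to 0.02. Counts that moved by over 1.5 times follow, and the cause was not tested. With all cells, DESeq2 called 3 nuclear members higher and 5 lower, and scaling to nuclear UMIs called 10 higher and 7 lower, with 5 mitochondrially encoded genes higher. Of all genes, DESeq2 called 561 higher and 651 lower of 9637, and nuclear scaling 2697 and 736 of 9643. In cluster 2, nuclear members called lower numbered 14 with TMM, 11 with edgeR, 5 with nuclear scaling and 4 without cells of 10 or more somatic UMIs. They numbered 0 with DESeq2, with no filter or without doublets, and nuclear scaling called 4 higher. Mitochondrially encoded genes called higher there numbered 4 with TMM, edgeR and nuclear scaling, 1 with a pseudocount of 0.1 or without doublets, and 0 with DESeq2 or no filter. Of all genes in cluster 2, TMM called 674 higher and 771 lower, edgeR 763 and 649, and nuclear scaling 814 and 144. The pseudocount of 0.1 called 209 and 113, leaving out doublets 92 and 21, and leaving out cells with somatic UMIs 355 and 220. DESeq2 called 26 and 24, and no filter 2 and 1. Genes tested numbered 9394 to 9492, or 13994 with no filter. In clusters 3, 4 and 5, nuclear members called higher numbered 7 with DESeq2, 37 with nuclear scaling and 36 for KO cluster 5 alone, and those lower 14 with nuclear scaling and 18 for KO cluster 5 alone. Mitochondrially encoded genes called there were 2 higher and 2 lower with DESeq2, 0 lower with nuclear scaling, 11 higher and 0 lower for KO cluster 4 alone, and 7 lower for KO cluster 5 alone. Of all genes there, DESeq2 called 1720 higher and 1882 lower, and nuclear scaling 4487 and 1745. KO cluster 4 alone had 3372 and 2638, and KO cluster 5 alone 3262 and 2616, with 9250 to 9336 genes tested. For the difference of effects, nuclear members more positive numbered 8 with DESeq2 and 14 for KO cluster 4 alone, and those more negative 7 with TMM or nuclear scaling, 2 with DESeq2, 23 for KO cluster 4 alone and 1 for KO cluster 5 alone. Its mitochondrially encoded genes numbered 0 more positive with TMM, edgeR, DESeq2 and KO cluster 5 alone, and 5 more negative with edgeR and 0 for KO cluster 4 alone. Of all genes in that test, 2867 were more positive and 1966 more negative with TMM, 2177 and 2192 with edgeR, and 641 and 737 with DESeq2. Nuclear scaling gave 3304 and 1512, KO cluster 4 alone 2543 and 1953, and KO cluster 5 alone 2297 and 1620, with 9787 to 9857 genes tested.

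Among named members, a called value turned sign, or a call of the other sign arose, only where KO clusters were taken separately; values that were not called also turned sign under other scalings and without either KO library. Against WT cluster 3, KO cluster 4 alone gave log2 differences of -0.13 for Atp5c1 and -0.29 for Cox7b2, and KO cluster 5 alone gave 0.054 for Atp5g2, 0.40 for Cox6b1, -0.47 for mt-Co2, -0.36 for mt-Co3, -0.45 for mt-Cytb, -0.48 for mt-Nd4 and -0.34 for mt-Nd4l. The difference of effects became -0.0063 for Ndufb11 and 0.078 for mt-Nd4l with KO cluster 4 alone, and 0.29 for Atp5e, 0.22 for Uqcc2, 0.019 for Uqcrh, -0.32 for mt-Nd2 and -0.19 for mt-Nd3 with KO cluster 5 alone.
Over genes tested alone, the members' median U-motif score was 0.0062.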
